A study of Canis lupus familiaris with 9 samples.

Results

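Myosin heavy chains are the motor proteins of the thick filament, and the isoform that a muscle fibre makes sets how fast it contracts. The genes described here are MYH1, MYH2, MYH3, MYH4, MYH6, MYH7, MYH7B and MYH8, taken as every probe set whose only symbol in the platform annotation was one of these 8. Of them, 6 genes had a probe set, 17 probe sets in all out of 43035 on the array, and the annotation used here named none for MYH6 or MYH8, which were not analysed here. The brightest probe set by mean over the 9 dogs stands for each gene, and its other probe sets, called the second, the third and so on by falling mean, are given beside it. Skeletal muscle was taken from 9 female beagles, all intact and 4 years of age, and read on 1 Affymetrix canine array per dog. It was collected after an overnight fast at 24 weeks of a feeding trial. The dogs were randomized to eat ad libitum (5 dogs, animals 2, 5, 6, 7 and 8) or to be fed to hold baseline body weight (control, 4 dogs, animals 1, 3, 4 and 9), and both groups received the same commercial diet, Purina Pro Plan Performance Formula. The labels do not name the muscle, so whether every piece came from the same muscle or depth is not known here, and the groups differ in feeding alone as far as the labels go.

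In adult mammalian limb muscle, MYH7 marks slow oxidative fibres, MYH2 marks fast oxidative fibres (type 2A) and MYH1 marks fast glycolytic fibres (type 2X). MYH4 marks the fastest type, 2B, which is common in rodents but is not a usual limb fibre of the dog. MYH3 and MYH8 are made in embryonic and newborn muscle and again in regenerating fibres, MYH6 is the alpha chain of the heart, and MYH7B is an ancient slow-type chain of which little protein is made in limb muscle. In the dog gene table (assembly UU_Cfam_GSD_1.0) MYH8, MYH4, MYH1, MYH2 and MYH3 were consecutive protein-coding genes, MYH6 and MYH7 were next to each other, and MYH7B lay apart. The members are similar in sequence, and probe sets ending in _s_at or _x_at can by design bind more than one transcript, and crossing of signal between isoforms was not tested.

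Values are GCRMA values on the log2 scale, in which 1 unit is a doubling. The highest value on any array lay between 16.4 and 16.6, and the brightest probe sets of MYH2 and MYH7 read 15.42 to 15.89, where array signals can saturate. Probes differ in how well they bind, so only the same probe set is compared between dogs. In whole muscle, fewer fibres of a type and less RNA per fibre cannot be told apart. A probe set was tested when its value exceeded 4 on at least 4 arrays, and 13 of the 17 member probe sets, from 5 genes, met this.

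Of the fast isoforms, the MYH2 probe set, near the top of the scale, gave a narrow range of values, and the brightest MYH1 probe set a wide one. MYH2, on its only probe set, read 15.54, 15.58, 15.79, 15.70 and 15.52 in ad libitum dogs 2, 5, 6, 7 and 8, and 15.82, 15.68, 15.80 and 15.64 in control dogs 1, 3, 4 and 9. The groups overlapped, and all 9 dogs lay within 0.30. Its SD over the dogs was 0.115, and 5.91% of the tested probe sets had a smaller one. How far saturation narrows this range was not tested.

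The brightest MYH1 probe set read 13.04, 15.09, 10.94, 15.43 and 10.64 in ad libitum dogs 2, 5, 6, 7 and 8. In control dogs 1, 3, 4 and 9 it read 13.97, 13.16, 13.72 and 15.28. Ad libitum dogs 6 and 8 were the lowest of all and ad libitum dog 7 the highest, so that the ad libitum group spanned the controls on both sides. The distance from dog 8 to dog 7 was 4.79, or 27.7-fold. The SD over the 9 dogs was 1.76, larger than in 99.5% of the tested probe sets. The second MYH1 probe set ran from 6.21 in dog 8 to 8.58 in control dog 4 and ordered the dogs differently (Pearson r = 0.492, Spearman rho = 0.317 with the first over 9 dogs, exact permutation p = 0.175 and 0.410). Without dogs 6 and 8 that r was 0.341, and ad libitum dog 6, second lowest for the first probe set, was among the 3 highest for the second. The third MYH1 probe set lay at 2.16 to 2.28 on all arrays and was not tested.

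MYH4, the type 2B chain, was not above the level needed for testing on any array. Its brighter probe set ran from 3.34 to 3.99 over the ad libitum dogs and from 3.66 to 3.68 over the controls, and its other one from 2.36 to 2.42 over all dogs. The median of all probe sets lay at 3.30 to 3.38 on these arrays, and no difference is read from values this low.

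**Figure D1:**
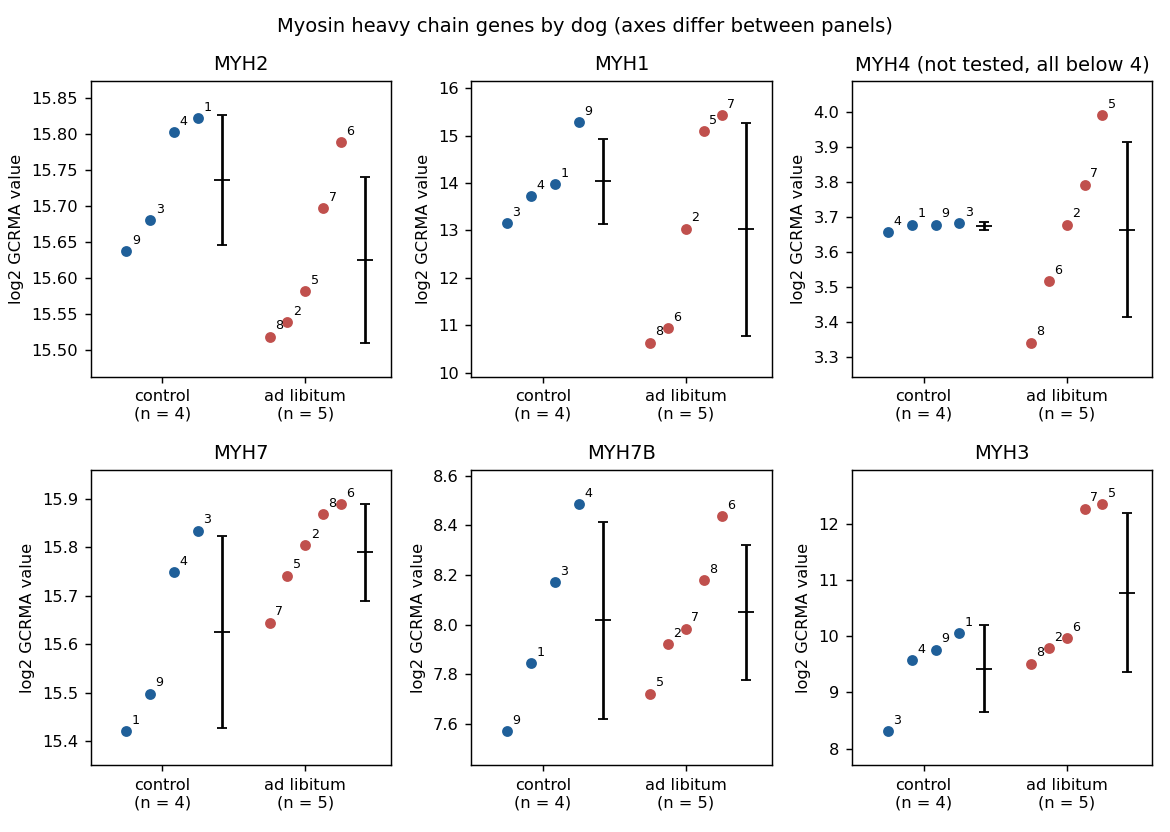
GCRMA values (log2) of the representative probe set of 6 myosin heavy chain genes in 4 control dogs (blue) and 5 ad libitum dogs (red), each point 1 dog with its animal number, and black bars the mean ± SD. The groups overlap in every panel. For MYH1, ad libitum dogs 6 and 8 lie far below all controls, dog 2 just below them (13.04, lowest control 13.16) and dog 7 above them.

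MYH7 is the slow isoform. Its brightest probe set read 15.81, 15.74, 15.89, 15.64 and 15.87 in ad libitum dogs 2, 5, 6, 7 and 8 and 15.42, 15.83, 15.75 and 15.50 in control dogs 1, 3, 4 and 9. Control dogs 1 and 9 were the lowest, and ad libitum dogs 6 and 8, lowest on the brightest MYH1 probe set, were the highest. A further 3 tested MYH7 probe sets gave a wider spread. The third MYH7 probe set, further from the top of the scale, read 14.00, 13.20, 14.07, 13.23 and 14.07 in the ad libitum dogs and 12.84, 13.76, 14.01 and 12.76 in the controls, animals listed as before. On it the dogs fell into an upper set (2, 3, 4, 6 and 8, from 13.76 to 14.07) and a lower set (1, 5, 7 and 9, from 12.76 to 13.23), each with dogs of both groups. The range over dogs was 0.47 on the brightest probe set and 0.69, 1.31 and 1.27 on the second, the third and the fourth. These 3 followed one another closely (r = 0.994 to 0.999 over 9 dogs, exact permutation p between 2.76e-06 and 1.1e-05) and the brightest less so (r = 0.904 to 0.909, exact permutation p between 0.000705 and 0.0011). The fifth lay at 2.95 to 3.02 and was not tested.

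MYH7B read 7.92, 7.72, 8.44, 7.98 and 8.18 in ad libitum dogs 2, 5, 6, 7 and 8 on its brightest probe set. Control dogs 1, 3, 4 and 9 read 7.84, 8.17, 8.49 and 7.57. Control dog 4 was the highest and control dog 9 the lowest, so the controls spanned the ad libitum dogs. The second and the third MYH7B probe sets gave nearly the same order with ranges of 1.41 and 1.75, and dogs 1, 5 and 9 were the 3 lowest on all 3 of these probe sets. The same 3 dogs were among the 4 lowest for every tested MYH7 probe set. The fourth MYH7B probe set lay close to the filter, from 3.89 to 4.42.

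MYH3, the embryonic chain, was the member whose representative probe set differed most between the groups by mean. The brighter MYH3 probe set read 9.79, 12.36, 9.96, 12.28 and 9.51 in ad libitum dogs 2, 5, 6, 7 and 8, and 10.05, 8.31, 9.57 and 9.76 in control dogs 1, 3, 4 and 9. Ad libitum dogs 5 and 7 stood more than 2 units above every other dog, and the remaining 3 ad libitum dogs lay among the controls. The second MYH3 probe set read 7.53, 9.15, 8.17, 4.84 and 9.91 in the ad libitum dogs and 5.99, 5.67, 6.19 and 7.63 in the controls. Here ad libitum dog 7 was the lowest of all and ad libitum dog 8 the highest. The probe sets shared the high value of dog 5 and opposed each other on dog 7 (r = 0.0345, Spearman rho = -0.0167 over 9 dogs, exact permutation p = 0.924 and 0.982, and r = 0.330 without dogs 5 and 7), so the order of the dogs for MYH3 depends on the probe set. Both probe sets had an SD over dogs (1.32 and 1.69) larger than in 98.7% and 99.5% of tested probe sets.

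Other genes of immature or regenerating fibres were set beside MYH3. Of 16 listed genes, 14 had a probe set and 8 were tested, with 4 higher and 4 lower by mean in ad libitum dogs. Limma called 0, and 1 had an unadjusted p under 0.05, beside 5.91% of all tested probe sets. That 1 was ACTC1, the cardiac alpha-actin that developing skeletal fibres also make, with ad libitum 9.65 ± 1.93 (SD, n = 5), control 7.36 ± 0.633 (SD, n = 4) and a difference in log2 of 2.29 (SE 0.89, limma adjusted p = 0.796). ACTC1 was highest in ad libitum dog 5 (11.76), followed by dogs 6 (10.79) and 8 (9.94), and lowest in ad libitum dog 7 (6.69), as on the second MYH3 probe set. MYL4, the embryonic light chain, read 9.16 in ad libitum dog 5 and 6.89 to 7.45 in the other 8 dogs. VIM, vimentin, which fibroblasts also make, differed by 0.75 (SE 0.42) and CDH15, the cadherin of satellite cells, by -0.71 (SE 0.32). MYOG, myogenin, a factor of differentiating myoblasts, lay between 3.34 and 3.52, and PAX7, the satellite cell factor, between 1.88 and 1.91, both below the filter on every array. The means of the matrix and macrophage lists were also highest in dog 5, although LUM and CD163 were highest in dog 6. The mean of the fibroblast and matrix list was 12.1 there and 8.08 in dog 7, against 10.2 to 10.8 in the other ad libitum dogs and 7.77 to 9.03 in controls. The actin 3' minus 5' value, a measure of RNA quality, was 6.67 in dog 5 and 5.13 in dog 7, with 5.08 to 5.96 in the other dogs. With the other actin 5' probe set it ran the other way, 3.84 in dog 5 and 5.03 in dog 7 against 3.29 to 5.33 in the other dogs, and the GAPDH value was 2.15 and 2.14 against 1.96 to 2.29. The part of the cell markers and of RNA quality in the MYH3 values was not tested.

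**Figure D2:**
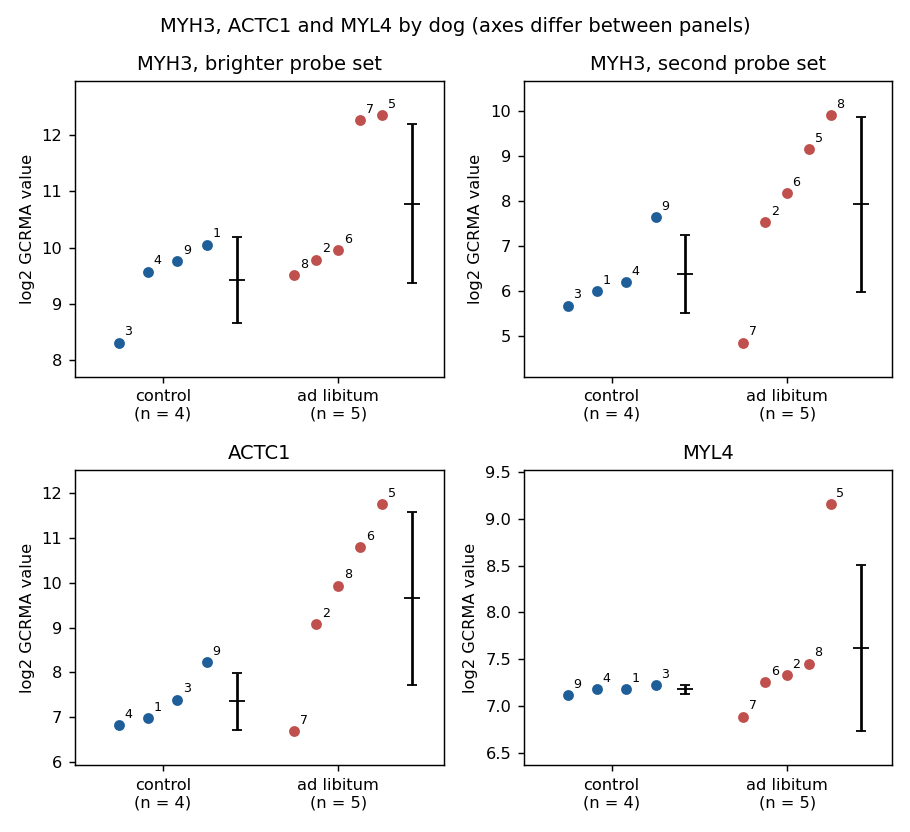
GCRMA values (log2) of both MYH3 probe sets, of ACTC1 and of MYL4 in 4 control dogs (blue) and 5 ad libitum dogs (red), each point 1 dog with its animal number and black bars the mean ± SD. Dog 5 is high in all 4 panels, and dog 7 is among the highest on the first MYH3 probe set (12.28) and the lowest on the second (4.84).

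The feeding comparison called no member. With limma over 18394 probe sets and Benjamini-Hochberg adjustment, 0 of the 13 tested member probe sets had an adjusted p under 0.05, and 0% of all tested probe sets did. At an unadjusted p under 0.05 the members counted 0 of 13, beside 5.91% of all tested, and the groups were fully apart for 0 of 13, beside 1.44% of all. By mean, the ad libitum group was higher for 9 of the 13 and lower for 4, with a median log2 difference of 0.073, and over all tested probe sets 48.4% were higher with a median of -0.0082. These counts run over several probe sets per gene, which are not independent.

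The MYH1 mean was 13.0 ± 2.24 (SD, n = 5) with ad libitum feeding and 14.0 ± 0.896 (SD, n = 4) with control feeding, so the log2 difference was -1.01 (SE 1.05) with a 95% interval from -3.36 to 1.35 (limma adjusted p = 0.888). The interval is wide on both sides of 0, so the direction for MYH1 is not resolved by these dogs. With 1 dog left out the difference ran from -1.61 without ad libitum dog 7 to -0.41 without ad libitum dog 8, and with the adipocyte marker mean as a covariate it was -0.48, against -1.52 with array weights. For MYH2 the means were 15.6 ± 0.115 (SD, n = 5) and 15.7 ± 0.0907 (SD, n = 4), which differ by -0.11 in log2 (95% interval -0.34 to 0.12, limma adjusted p = 0.874), with 4 of 5 ad libitum dogs below the control mean.

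For MYH7 the means were 15.8 ± 0.0998 (SD, n = 5) and 15.6 ± 0.198 (SD, n = 4), which differ by 0.16 in log2 (95% interval -0.11 to 0.44, limma adjusted p = 0.831), and the control mean lay below 5 of 5 ad libitum dogs. Without control dog 1 the difference was 0.096. Its other tested probe sets differed by 0.23, 0.37 and 0.38, and on each the control mean lay below 3 of 5 ad libitum dogs. MYH7B differed by 0.031 (95% interval -0.44 to 0.50, limma adjusted p = 0.987), and its direction changed with the dog or probe set used. MYH3 differed by 1.36 (SE 0.69, 95% interval -0.20 to 2.91) on the first probe set and by 1.55 (SE 0.92, 95% interval -0.52 to 3.62) on the second (limma adjusted p = 0.796 and 0.799). All 5 ad libitum dogs lay above the control mean on the first and 4 of 5 on the second. The similar means rest on different dogs, 5 and 7 on the first and 5 and 8 on the second.

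**Figure D3:**
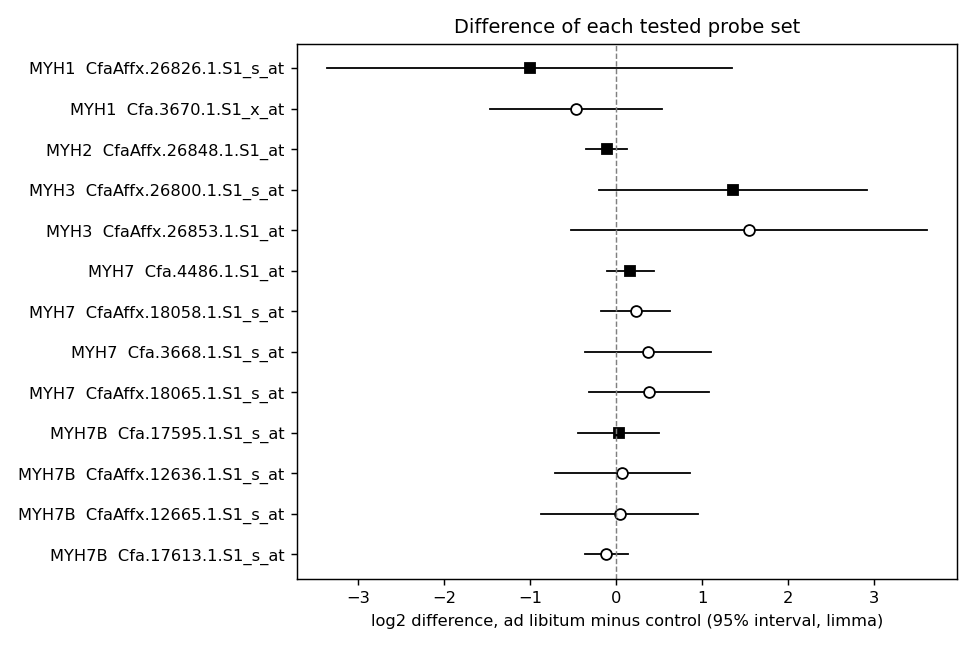
Log2 difference, ad libitum minus control, with its 95% interval from limma for the 13 tested member probe sets, squares marking the representative probe set of a gene. Every interval includes 0, and those of the representative MYH1 probe set (-3.36 to 1.35) and of both MYH3 probe sets are the widest.

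The balance of fast and slow isoforms was then read within each dog, as the log2 value of the fast isoform minus that of MYH7 on the same array. The offset between 2 probe sets has no meaning of its own, so each ratio is given relative to the control mean. For MYH1 minus MYH7, ad libitum dogs 2, 5, 6, 7 and 8 stood at -1.17, 0.94, -3.36, 1.38 and -3.64, and control dogs 1, 3, 4 and 9 at 0.15, -1.08, -0.44 and 1.37. Ad libitum dogs 8, 6 and 2 lay below every control and ad libitum dog 7 just above the highest, and the whole range was 5.02. It was 5.33, 5.95 and 5.91 against the second, the third and the fourth MYH7 probe sets, and 2.50 with the second MYH1 probe set in place of the brightest. The mean difference between the groups was -1.17 (limma 95% interval -3.66 to 1.32, exact permutation p = 0.381, 0.429 adjusted over the 3 ratios). With 1 dog left out it ran from -1.81 without ad libitum dog 7 to -0.55 without ad libitum dog 8, and with the second MYH1 probe set it was -0.63 (exact permutation p = 0.262).

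For MYH2 minus MYH7, both read near the top of the scale, the range was 0.75, and it was 0.99, 1.54 and 1.51 against the second, the third and the fourth MYH7 probe sets. The ad libitum dogs 2, 5, 6, 7 and 8 stood at -0.38, -0.27, -0.21, -0.057 and -0.46 and the control dogs 1, 3, 4 and 9 at 0.29, -0.26, -0.056 and 0.029. All 5 ad libitum dogs lay below the control mean, and 3 of them below the lowest control. The difference was -0.28 (limma 95% interval -0.59 to 0.038), with an exact permutation p of 0.0556 before and 0.167 after adjustment over the 3 ratios, where the design allows 0.00794 at best. With 1 dog left out the difference ran from -0.36 without control dog 3 to -0.18 without control dog 1. The exact permutation p was 0.0357 (0.107 adjusted) without control dog 3 and 0.143 (0.429 adjusted) without control dog 1. When another MYH7 probe set took the place of the brightest, the difference was -0.34 to -0.50, and the exact permutation p rose to between 0.127 and 0.214.

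For MYH1 minus MYH2, the balance of 2X over 2A transcripts, ad libitum dogs 2, 5, 6, 7 and 8 stood at -0.80, 1.21, -3.15, 1.44 and -3.18 and control dogs 1, 3, 4 and 9 at -0.15, -0.82, -0.38 and 1.34. The order of the dogs was close to that of the brightest MYH1 probe set. This ratio differed between the groups by -0.89 (limma 95% interval -3.26 to 1.48, exact permutation p = 0.429, and 0.429 adjusted), from -1.48 without ad libitum dog 7 to -0.32 without ad libitum dog 8. With the second MYH1 probe set it was -0.36. The ratio of MYH4 to MYH7 was not formed because MYH4 was below the filter.

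**Figure D4:**
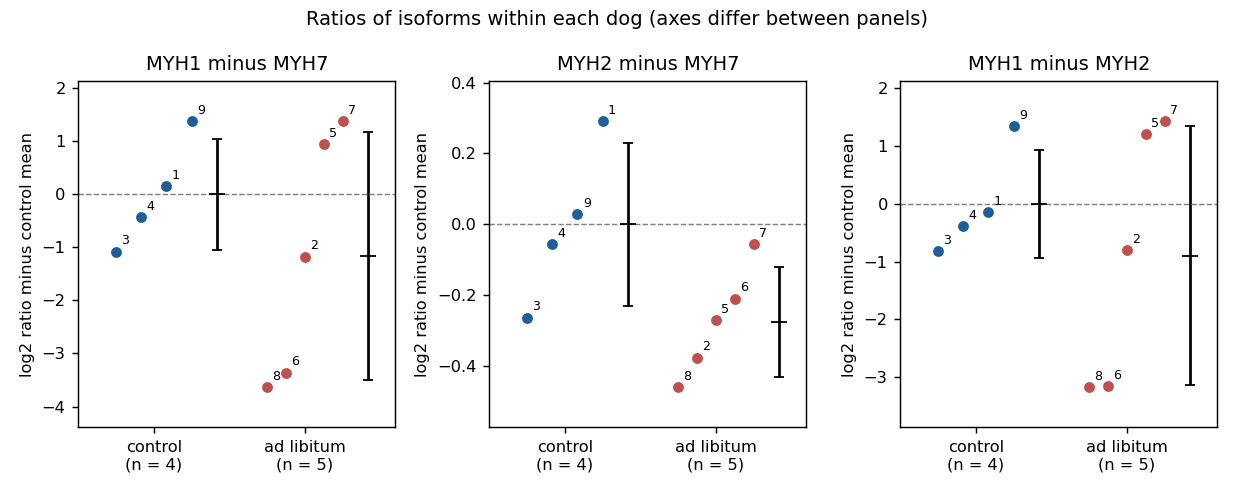
Per-dog log2 ratios of isoforms relative to the control mean (dashed line) in 4 control dogs (blue) and 5 ad libitum dogs (red), with animal numbers and the mean ± SD in black. Dogs 6 and 8 lie more than 3 units below the control mean in both ratios that hold MYH1 (its brightest probe set), and for MYH2 minus MYH7 all 5 ad libitum dogs lie below it by 0.057 to 0.46.

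On its brightest probe set, but not on its second, MYH1 ran opposite to MYH7 by rank across the 9 dogs. The 4 dogs highest for MYH1 on that probe set (7, 9, 5 and 1) were the 4 lowest for MYH7, and they were 2 ad libitum and 2 control dogs. Spearman's rho was -0.850 (exact permutation p = 0.00607, 0.0182 adjusted over 3 relations) and Pearson's r was -0.681 (exact permutation p = 0.044, 0.132 adjusted). Taken as deviations from the group means, so that a difference between groups cannot contribute, r was -0.645 (exact permutation within groups, p = 0.00903). Without ad libitum dogs 6 and 8, the farthest from the median of MYH1, r was -0.482 (exact permutation p = 0.283, n = 7) and rho -0.714. Without dog 6 alone r was -0.607, and without dog 8 alone -0.632. The linear relation was thus weaker without those dogs, and a test on 7 dogs also resolves less. With the second and the third MYH7 probe sets, an alternative chosen after seeing the data, r was -0.807 and -0.776 (exact permutation p = 0.0265 and 0.0454 adjusted), and with the fourth -0.761 (exact permutation p = 0.0541 adjusted). Without control dog 1, r on the brightest probe set was -0.831 (exact permutation p = 0.0214 adjusted). With the second MYH1 probe set, also chosen after seeing the data, r with the brightest MYH7 probe set was -0.242 and rho -0.0667 (exact permutation p = 0.538 and 0.880), and with the other MYH7 probe sets r was -0.266 to -0.201. Both values of a dog come from the same array.

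The other pairs passed no test on the representative probe sets. MYH2 with MYH7 had r = -0.337 and rho = -0.333 (exact permutation p = 0.371 and 0.385), and r was -0.0538 without ad libitum dogs 2 and 8. MYH1 with MYH2 had r = 0.0892 and rho = 0.283 (exact permutation p = 0.813 and 0.463) and r = -0.0608 without dogs 6 and 8, and its sign turned without ad libitum dog 8. On the second MYH1 probe set the relation with MYH2 was closer, r = 0.768 and rho = 0.800 (exact permutation p = 0.0141 and 0.0138, the first 0.0424 adjusted), so what MYH1 follows depends on which of its probe sets is read.

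**Figure D5:**
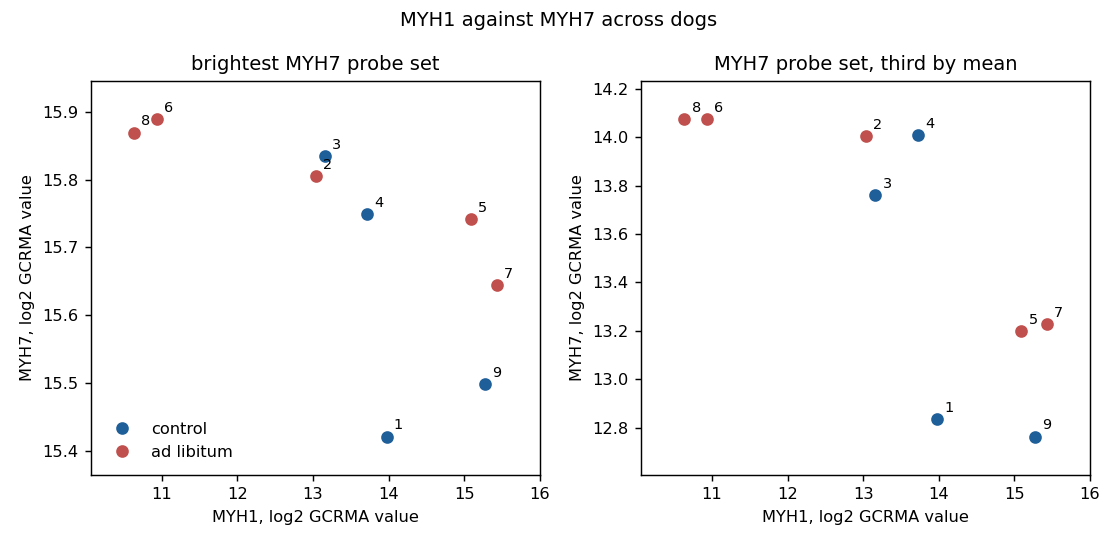
The brightest MYH1 probe set against MYH7 (both log2 GCRMA values) in 9 dogs with animal numbers, control in blue and ad libitum in red, for the brightest MYH7 probe set (left) and for the third by mean (right). Dogs of both groups lie at the high MYH1, low MYH7 end (1, 5, 7 and 9), and dogs 6 and 8 form the opposite end.

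The genes whose pattern over the 9 dogs was most like the brightest probe set of each isoform were ranked by Pearson's r among 7533 other genes, 1 probe set each, as a description. For MYH1 they were MPG, a DNA repair glycosylase (r = 0.903), ENO3, the muscle enolase (0.901), TNNT3, fast troponin T (0.897), GCDH, a mitochondrial dehydrogenase of lysine breakdown (0.895), and TNNI2, fast troponin I (0.890). Most opposite were ITPR1, a calcium release channel (-0.898), TNNC1, slow and cardiac troponin C (-0.891), and AATF (-0.877). For MYH7 they were ACTR1A, an actin-related protein of dynactin (0.910), SMARCA4, a chromatin remodeller (0.909), ANKH (0.900), ATP2A2, the calcium pump of slow fibres (0.886), and IGF2R (0.884), with KLHDC3 (-0.924), ELL2 (-0.923) and ZBTB32 (-0.909) most opposite. For MYH2 they were TSTD2 (0.929), RNF11 (0.911), the citric acid cycle subunit SUCLG2 (0.887), ART5 (0.831) and HS3ST5 (0.821), with PCGF3 (-0.947), ID3, an inhibitor of helix-loop-helix factors (-0.939), and DHRS1 (-0.930) most opposite. Of these genes TNNT3, TNNI2, TNNC1 and ATP2A2 were on the lists of contractile genes used here. High values are common when so many genes are ranked over 9 dogs.

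The partner genes of the contractile apparatus were read against the isoforms. Of 14 genes of fast fibres, all were tested, 0 were called and 14 of 14 had lower means in ad libitum dogs. The median log2 difference was -0.16 and the one nearest 0 was -0.00049. Over all tested probe sets 48.4% had higher means. An unadjusted limma p under 0.05 was found for 2 of the 14, beside 5.91% of all tested. These genes were read on the same arrays and are not independent. ACTN3, the alpha-actinin of fast fibres, read 10.40 in ad libitum dog 8 and 12.99 to 14.70 in the other dogs, a difference of -1.06 (SE 0.76). CAPN3, a muscle protease, differed by -0.65 (SE 0.17) and MYBPC2, fast myosin-binding protein C, by -0.49 (SE 0.31), none passing adjustment (limma adjusted p = 0.796 to 0.826). CAPN3 is not confined to fast fibres. Its values did not overlap, at 9.12 to 9.68 in ad libitum and 9.72 to 10.39 in control dogs, as for 1.44% of all tested probe sets. The mean of the fast list was highest in dogs 9 (14.12), 7 (13.95) and 5 (13.93), the 3 highest on the brightest MYH1 probe set, and lowest in ad libitum dog 8 (13.18), the lowest on it.

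Of 13 genes of slow fibres, 11 were tested, 9 had higher and 2 lower means in ad libitum dogs, 0 were called and 0 had an unadjusted limma p under 0.05, with a median log2 difference of 0.083. ANKRD2, a stretch-responsive protein, differed by 0.50 (SE 0.56), TPM3, slow tropomyosin, by 0.28 (SE 0.21) and MYL6B, a light chain, by 0.20 (SE 0.94). MYL6B varied most among dogs, from 10.23 in control dog 1 and 10.26 in ad libitum dog 7 to 14.46 in ad libitum dog 6. The slow list mean was highest in ad libitum dog 6 (14.63) and lowest in ad libitum dog 7 and control dog 1 (13.48 each), again across the groups.

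Genes that fold and anchor myosin differed by -0.41 to 0.53 in log2 between the group means. Of 12 listed, 11 were tested, 3 higher and 8 lower by mean in ad libitum dogs, 0 called, and the median log2 difference was -0.061. An unadjusted limma p under 0.05 was found for 1 gene, beside 5.91% of all tested probe sets. That gene was UNC45B, the myosin chaperone of striated muscle, whose means were 11.9 ± 0.276 (SD, n = 5) and 12.3 ± 0.0751 (SD, n = 4), a difference of -0.41 (SE 0.15, limma adjusted p = 0.796). Its values did not overlap, at 11.45 to 12.13 in ad libitum and 12.21 to 12.37 in control dogs, as for 1.44% of all tested probe sets. MYOM3 and MYOM2, M-band proteins, differed by 0.53 and -0.20. Of 18 regulators of fibre type, 11 were tested, 2 higher and 9 lower, 0 called, with a median of -0.24. Of the 11, 3 had an unadjusted limma p under 0.05, beside 5.91% of all tested probe sets. SOX6, a repressor of slow fibre genes, differed by -0.58 (SE 0.22), TEAD1 by -0.55 (SE 0.24) and TEAD4 by 0.47 (SE 0.19), both factors that bind muscle gene promoters (limma adjusted p = 0.796 for each). TEAD1 averaged 4.31 and 4.87, near the filter. The SOX6 values did not overlap either, at 5.24 to 5.99 in ad libitum and 6.05 to 6.92 in control dogs, while those of TEAD1 and TEAD4 did.

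The tissue label was checked against its markers. Of the 9 skeletal muscle genes listed, 7 were tested and limma called 0. For 4 of them the ad libitum mean was above the control mean, and for 3 it was below. Myoglobin, MB, lay at 15.74 to 15.92 and TCAP, a Z-disc protein, at 13.17 to 13.79 in all dogs. RYR1, the calcium release channel of skeletal muscle, lay at 3.07 to 3.88, below the filter on every array, so not every listed marker was seen. The heart markers MYL7 (2.50 to 2.56) and NPPB (2.37 to 2.43) were below the filter everywhere. TNNT2, the cardiac troponin T that immature skeletal fibres also make, read 5.34 to 9.39, highest in ad libitum dog 5. TNNI3, cardiac troponin I, read 6.42 to 8.09, highest in ad libitum dog 2. Some lists of other cells had mostly higher means in ad libitum dogs and some did not. Of 13 tested adipocyte markers (14 listed) 12 were higher, and the list mean ran from 8.56 to 10.5 in ad libitum and 7.76 to 9.44 in control dogs. All 10 tested of 11 fibroblast and matrix markers and all 4 tested of 10 macrophage markers were higher too, beside 48.4% of all tested probe sets. In the adipocyte, matrix and macrophage lists limma called 0. There 3, 6 and 3 had an unadjusted limma p under 0.05, beside 5.91% of all tested probe sets. The genes of a list are not independent. Of 10 endothelial markers 6 were higher and 4 lower (median 0.097), and of 9 smooth muscle and pericyte markers 5 were higher and 4 lower (median 0.0080), with 0 called and 1 in each list at an unadjusted limma p under 0.05. Ad libitum dogs 6 and 8, lowest on the brightest MYH1 probe set, had adipocyte list means of 9.97 and 9.69. Dogs 5 and 7, high for MYH1, had 9.97 and 8.56. With the adipocyte list mean as a covariate the difference was -0.48 for MYH1 and -0.073 for MYH2, against -1.01 and -0.11 without it. For MYH3, MYH7 and MYH7B it was 1.79, 0.22 and 0.26, against 1.36, 0.16 and 0.031 without it. Most adipocyte markers were higher in ad libitum dogs, so this covariate and feeding cannot be told apart. RNA quality, as the GAPDH 3' minus 5' value, was 2.14 to 2.29 in ad libitum and 1.96 to 2.22 in control dogs (exact permutation p = 0.0714), with 2.24 and 2.25 in dogs 6 and 8 and 2.14 to 2.15 in dogs 5 and 7. The actin value did not separate these pairs, at 5.60 and 5.96 in dogs 6 and 8 and 6.67 and 5.13 in dogs 5 and 7. With the other actin 5' probe set it was 3.95 and 3.96 against 3.84 and 5.03. Between the feeding groups the exact permutation p was 0.0873 and 0.730 for these actin measures. The part of RNA quality in the isoform values was not tested.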

How the data were processed

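Each dog's group and animal number came from the sample titles, which match the treatment labels. No batch, litter or scan date is named in the labels, and no replicate numbers are shared between groups. The deposited values were made by the authors with GCRMA, per the submitters' processing notes, and taken as log2 from their range (0.652 to 16.6), since no source used here states the base. Of 43035 probe sets, 111 controls were left out and 18394 that exceeded 4 on 4 or more arrays were tested. The number of arrays limits the precision.

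Probe sets were named from the 2016 platform annotation. All 17 member probe sets matched the RefSeq gene table by gene ID, and 0 symbols changed. Group differences came from limma (version 3.58.1, R 4.3.3; lmFit and eBayes, two-sided, no covariate, 7 residual degrees of freedom) and adjusted by the Benjamini-Hochberg method over all tested probe sets, with a threshold of 0.05. Ratios and correlations used two-sided exact permutation tests with scipy 1.17.1 and numpy 2.4.6. The limma step was tested on simulated data. The members and gene lists were chosen with earlier results of these data known. All members were named, with the 5 most and 3 least alike genes for MYH1, MYH2 and MYH7, and up to 3 genes per list by size of difference. MYL4, MYOG, PAX7, LUM, MB, TCAP, RYR1, MYL7, NPPB, MYH10 and MYH15 fell outside these rules and were named after their values were seen. The agreement tests between probe sets of 1 gene, 14 in all, were also chosen after the values were seen.

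Alternatives were no filter, a filter at 6, a floor at 4, cyclic loess, an intensity trend, array weights, adipocyte markers as a covariate, other probe sets, the mean over the tested probe sets of a gene and leaving out each dog. The ratios and correlations were run with only some of these.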

Additional observations from a re-analysis of the deposited data

Results flagged for a closer look

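Over 32 groups of dogs (13 tested member probe sets and 3 ratios, in each feeding group), 3 had 1 dog far from the rest by Dixon's criterion, where chance gives 1.6. Control dog 4 read 8.58 on the second MYH1 probe set, with the nearest control at 7.62. On the fourth, dimmest MYH7B probe set control dog 4 read 4.42, with the nearest control at 4.25, and ad libitum dog 7 read 3.89, with the nearest ad libitum dog at 4.23. Both values lie next to the filter at 4. The low values of ad libitum dogs 6 and 8 on the brightest MYH1 probe set (10.94 and 10.64) were not marked. They lie close to each other, in a group that ran from 10.64 to 15.43.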

How the results depend on the processing

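No member probe set was called under any filter, normalization, weighting or covariate run or without any 1 dog. Over all probe sets 1 was called with values below 4 raised to 4, and 0 to 1 with 1 dog left out (1 without ad libitum dog 8). Of the member genes, MYH7B changed direction: it differed by -0.11 on its dimmest probe set and by -0.12 to 0.19 with a dog left out. Pearson's r of MYH1 with MYH2 ran from -0.321 to 0.375 with a dog left out. For MYH1 with MYH7 it ran from -0.831 to -0.607, past the adjusted threshold only without control dog 1. Spearman's rho for MYH1 with MYH7, -0.850 over all 9 dogs, passed (exact permutation p = 0.0182 adjusted), and no rho with a dog left out is given here. On the second and the third MYH7 probe sets, chosen after seeing the data, Pearson's r of MYH1 with MYH7 was -0.807 and -0.776 and passed. On the second MYH1 probe set, likewise chosen, the correlation with MYH2 was 0.768 and passed, and that with MYH7 was -0.242 and did not. The 3 ratios were rerun with cyclic loess, other probe sets, the mean over probe sets, a limma fit and each dog left out. They kept their direction in all of these, and none passed adjustment. The other alternatives were not applied to the ratios. No paired analysis was possible because the groups share no animal numbers. Signals near the top of the scale limit MYH2 and MYH7, and signals near the filter limit MYH4 and the dimmest MYH7B probe set.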

Other observations

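Myosin heavy chains of other cells were measured beside the sarcomeric members. MYH9, the non-muscle chain found in most cells, averaged 8.52 ± 0.849 (SD, n = 5) with ad libitum and 7.95 ± 0.147 (SD, n = 4) with control feeding, with the highest value in ad libitum dog 5 (9.33) and the lowest in ad libitum dog 7 (7.11). MYH11, the smooth muscle chain, read 8.81 ± 0.429 against 9.07 ± 0.333, and MYH16, the chain of jaw muscles, stayed at 3.81 to 4.35. Their log2 differences were 0.58, -0.26 and -0.26 (limma adjusted p = 0.814, 0.873 and 0.796). MYH10 lay at 2.56 to 3.09 and MYH15 at 2.47 to 3.73, below the filter.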
